A study of Mus musculus with 2 samples.

Results

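The IL-1 family ligands and receptors described here are 9 genes, 5 ligand genes (Il1a, Il1b, Il1rn, Il33 and Il18) and 4 receptor genes (Il1r1, Il1r2, Il1rap and Il1rl1). They were taken by symbol from the 19059 genes of a single-cell matrix, and all 9 were present. The cells came from KPC tumors, a mouse pancreatic cancer model, grown orthotopically in the pancreas. Of the study's samples, 1 came from tumors treated with DMSO, the solvent control, and 1 from tumors treated with EIPA at 10 mg/kg. EIPA blocks sodium-proton exchangers and is used to inhibit macropinocytosis, the bulk uptake of extracellular fluid. Each sample pooled 4 flash-frozen tumors, which were fixed, dissociated mechanically and read with the 10x probe-based assay for fixed RNA. Mouse strain, age and dosing schedule are not given in the sources used here.

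The matrix holds both samples as library 1 and library 2, and no label says which of them is DMSO and which is EIPA. Values are therefore given side by side by library number, with no direction of treatment. Each library is 1 sample of pooled tumors and its cells do not replicate it, which leaves no test between libraries, and every interval covers counting error only. Library 1 had 12337 barcodes (203459556 unique molecular identifiers, UMIs) and library 2 had 11945 (185474400 UMIs), with medians of 11695 and 10756 UMIs a barcode. The libraries share 225 barcode sequences. After filters, 11115 and 10785 cells were kept and grouped into 25 clusters, named from marker genes; each class name stands for cells like that type by its markers. A class level is given as the gene's UMIs per 1000000 UMIs of the class (CPM), with an exact Poisson 95% interval. The probes of different genes may capture RNA with different efficiency, so an order between genes is an order of counts only. Epithelial tumor cells numbered 4561 and 4896, and clusters with too few markers for a name 4822 and 3715. Fibroblasts numbered 372 and 451, macrophages or monocytes 791 and 786, neutrophils 143 and 169, T cells 117 and 331, blood endothelial cells 151 and 131, and pericytes 60 and 50. The defining markers were present in each of these classes (8 of 9 neutrophil markers at 20 CPM or more in both libraries, 12 of 12 for macrophages, 9 and 10 of 10 for fibroblasts). The unnamed class had 12 of 16 epithelial markers at that level but less of their summed RNA than the epithelial tumor class (4874 and 5944 CPM against 11070 and 9635). That count does not set it apart from leukocytes. T cells had 14 of 16 at that level (4559 and 4150 CPM summed) and macrophages 13 of 16 (3644 and 2987 CPM).

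IL-1 alpha and IL-1 beta are inflammatory cytokines that signal through the receptor IL1R1 with its accessory chain IL1RAP. IL1RN is a natural antagonist that occupies IL1R1 without signaling, and IL1R2 is a decoy receptor that binds IL-1 without passing a signal on. IL-33 is an alarmin of barrier and stromal cells read by IL1RL1 (ST2), also with IL1RAP, and IL-18 uses its own receptor pair. IL-1 beta and IL-18 are made as precursors that inflammasome proteases cut, a step that RNA counts do not report.

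On the GRCm38 build, the mm10 assembly, the ligand genes lie at chr2:129299610-129309972 (Il1a, minus strand), chr2:129364570-129371139 (Il1b, minus strand), chr2:24336853-24351494 (Il1rn), chr19:29925114-29960718 (Il33) and chr9:50554827-50581840 (Il18). Of the receptor genes 3 are neighbors, at chr1:40074079-40125231 (Il1r2), chr1:40225080-40317257 (Il1r1) and chr1:40429570-40465415 (Il1rl1), and Il1rap lies at chr16:26581704-26730117. RefSeq promoter windows (GRCm38.p6, 250 bases before to 50 after a transcript start) matched all 9 genes, with 14 windows in all. The expression of Il1a, Il1b and Il1rn is compared by class below. The windows of the neighboring cytokine genes Il1a and Il1b and the first of 3 windows of the antagonist gene Il1rn are shown. They lie at chr2:129309923-129310222 and chr2:129371090-129371389, both on the minus strand, and at chr2:24336610-24336909 on the plus strand. Capitals mark matches to an AP-1 motif (TGANTCA) or a kappaB motif (GGG, any 5 bases, CC), searched on both strands, and each sequence runs 5′ to 3′.
Il1a: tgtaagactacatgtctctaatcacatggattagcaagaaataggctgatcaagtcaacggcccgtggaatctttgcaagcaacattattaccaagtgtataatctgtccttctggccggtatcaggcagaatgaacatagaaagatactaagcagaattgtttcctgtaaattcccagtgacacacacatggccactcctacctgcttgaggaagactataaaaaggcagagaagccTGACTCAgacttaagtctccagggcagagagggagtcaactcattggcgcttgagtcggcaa
Il1b: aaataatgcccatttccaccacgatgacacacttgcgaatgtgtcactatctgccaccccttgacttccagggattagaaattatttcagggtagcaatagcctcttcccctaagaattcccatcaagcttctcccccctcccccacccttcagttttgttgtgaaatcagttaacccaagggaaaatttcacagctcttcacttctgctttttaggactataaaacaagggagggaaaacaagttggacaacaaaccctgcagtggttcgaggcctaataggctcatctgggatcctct
Il1rn: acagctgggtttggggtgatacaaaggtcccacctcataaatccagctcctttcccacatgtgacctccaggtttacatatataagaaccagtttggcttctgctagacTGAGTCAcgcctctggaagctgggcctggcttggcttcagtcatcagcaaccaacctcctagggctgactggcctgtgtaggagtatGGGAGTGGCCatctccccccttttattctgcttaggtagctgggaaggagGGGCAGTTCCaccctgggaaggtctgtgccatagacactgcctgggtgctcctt

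The AP-1 letters are in the Il1a and Il1rn windows, 2 of the 14, and in 7.81% of all 32851 RefSeq windows. In the Il1a window they begin at -12 from the transcript start, and in the Il1rn window at -141. The kappaB letters are in 5 of the 14 windows and in 50.8% of all windows. The Il1rn window has 2 such matches and the Il1a and Il1b windows have none. TATAAA is present in 6 of the 14 windows and in 13.6% of all, at -32 in Il1a and -31 in Il1b. GAGGAAG, the core of a PU.1 site, is in 2 of the 14 windows, Il1a among them, and in 13.6% of all. A match describes letters in a window and no more.

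Il1b, the secreted IL-1 of myeloid cells, had the highest level of any member, and neutrophils carried it above every other class in both libraries. Its level in neutrophils was 1167 CPM (629 UMIs, 95% interval 1078 to 1262) in library 1 and 801 CPM (413 UMIs, 725 to 882) in library 2. Macrophages or monocytes came next, at 330 CPM (314 to 345) and 400 CPM (380 to 421). Of the classes with at least 50 cells in each library, T cells followed at 108 and 43.1 CPM, and these 3 had separate intervals in both libraries. Among smaller classes, unnamed Ptprc-positive leukocytes stood at 247 and 174 CPM and dendritic cells at 42.2 and 64.1 CPM. Fibroblasts stood at 26.6 and 19.3 CPM, epithelial tumor cells at 9.88 and 6.43 CPM and unnamed cells at 8.51 and 5.32 CPM. A UMI of Il1b was found in 76.2% and 60.4% of neutrophils and in 49.8% and 42.9% of macrophages. With every cell thinned to 1000 UMIs, which left out 63 and 76 of the neutrophils, the shares were 56.2% and 44.1% of neutrophils and 27.2% and 26.6% of macrophages. The matching share in epithelial tumor cells, a class that serves as background here, was 0.817% and 0.863%. Before thinning, the median depth was 1265 and 1099 UMIs in neutrophils, 3420 and 2794.5 in macrophages, and 11633 and 12946 in epithelial tumor cells.

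**Figure D1:**
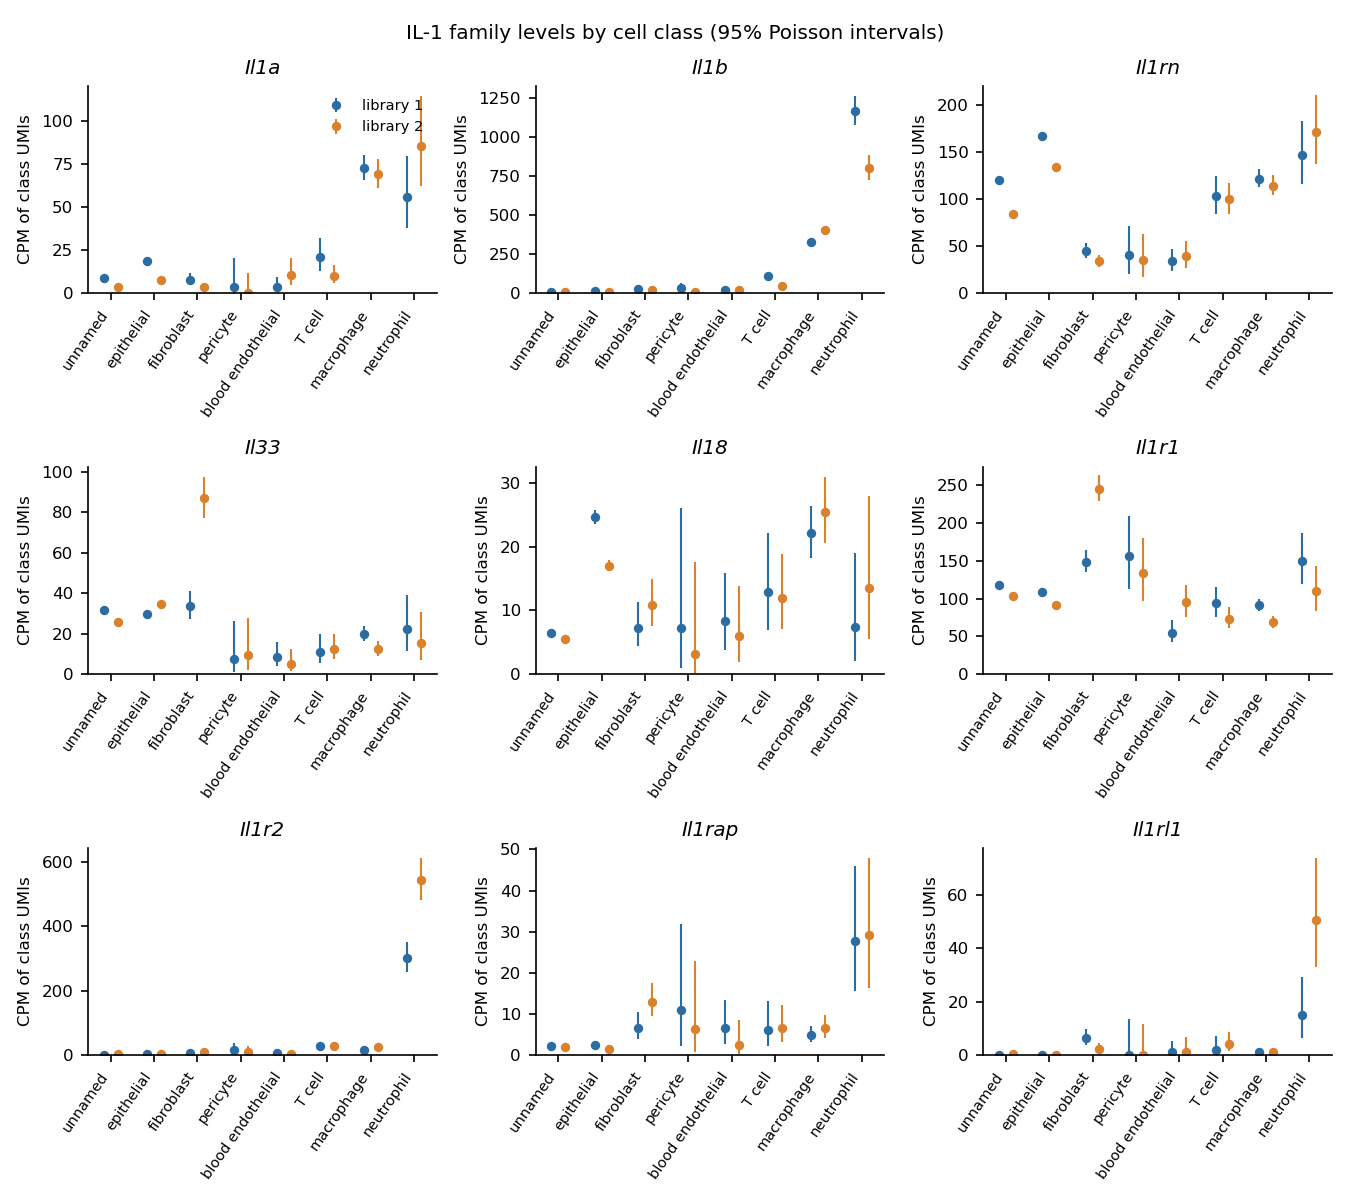
Level of each of the 9 genes (vertical axes, CPM of the class's UMIs) in the 8 classes with at least 50 cells in each library; points are libraries 1 and 2 and bars are exact Poisson 95% intervals. Il1b and Il1r2 are highest in neutrophils (1167 and 801 CPM, 302 and 545 CPM), whereas Il1rn and Il1r1 lie above 30 CPM in every class.

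By total, macrophages held most Il1b. They held 42.8% and 49.1% of all Il1b UMIs of their library (4106 and 3108 UMIs), neutrophils 15.3% and 13.3%, and epithelial tumor cells 19.0% and 18.2%. Within macrophages the UMIs were uneven. In the tenth of macrophages with most Il1b lay 58.9% and 66.2% of its UMIs, and 14.7% and 11.6% of macrophages held 5 or more. In neutrophils 36.4% and 18.9% of cells held 5 or more.

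Il1a, the IL-1 that cells also keep bound or inside, followed the myeloid pattern at a lower level and was the ligand with the widest fold range among tumor-cell clusters. Macrophages stood at 72.8 CPM (65.7 to 80.4) and 69.0 CPM (60.9 to 77.9), and neutrophils at 55.7 CPM (37.6 to 79.5) and 85.3 CPM (62.0 to 115), with overlapping intervals in each library. Epithelial tumor cells stood at 18.7 CPM (17.7 to 19.7) in library 1 and 7.60 CPM (7.03 to 8.20) in library 2. Unnamed cells stood at 8.82 and 3.38 CPM, and fibroblasts at 7.66 and 3.31 CPM. Because tumor cells are many, epithelial tumor cells still held 56.0% and 54.8% of all Il1a UMIs, against 14.7% and 21.6% in macrophages. In thinned macrophages with an Il1a UMI, Il1b was found in 27 of 60 cells (45.0%) and 25 of 51 cells (49.0%), against 25.6% and 24.8% of macrophages without one. These shares are a description of cells of 1 pooled sample each.

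Il1rn, the antagonist, was the ligand gene with the highest level in tumor cells. Its levels in epithelial tumor cells were 166 CPM (164 to 169) and 134 CPM (131 to 136), and in unnamed cells 120 and 84.4 CPM. Neutrophils stood at 147 CPM (116 to 183) and 171 CPM (137 to 210) and macrophages at 122 and 114 CPM. Fibroblasts, pericytes and blood endothelial cells lay lower, between 33.6 and 44.5 CPM in both libraries. Epithelial markers in those classes stood at 24.1% to 36.2% of their level in the sum of epithelial tumor and unnamed cells. RNA in that proportion from those cells would give 36.4 and 27.996 CPM of Il1rn in fibroblasts and 51.9 and 36.2 CPM in pericytes, a range that overlaps the levels measured. In neutrophils and macrophages it would give 71.6 and 71.6 CPM and 60.4 and 42.1 CPM, under the levels measured. Without the sub-clusters rich in tumor-cell RNA, in which epithelial markers reached at least 40% of their tumor-cell level in both libraries, Il1rn stood at 364 CPM (256 to 502) and 338 CPM (251 to 445) in neutrophils and at 205 and 150 CPM in macrophages. Both classes then lay above epithelial tumor cells, with separate intervals in neutrophils of both libraries.

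The balance of antagonist to agonist RNA differed between compartments. Of the summed Il1rn, Il1a and Il1b UMIs, Il1rn made up 85.4% (84.8 to 85.9) and 90.5% (90.0 to 91.0) in epithelial tumor cells, and 87.4% and 90.6% in unnamed cells. In macrophages it made up 23.2% (21.6 to 24.8) and 19.6% (17.9 to 21.3). In neutrophils it made up 10.7% (8.57 to 13.2) and 16.1% (13.2 to 19.5). The probes of the 3 genes may capture RNA with different efficiency, so these shares compare classes and not the genes with each other.

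Il33, the alarmin ligand, was a gene of fibroblasts and tumor cells. In library 2 fibroblasts stood at 87.0 CPM (77.3 to 97.6), above every other class, and in library 1 at 33.5 CPM (27.0 to 41.1), an interval that overlapped that of unnamed cells. Epithelial tumor cells stood at 29.8 and 34.7 CPM and unnamed cells at 31.6 and 25.8 CPM. Neutrophils, macrophages, T cells, pericytes and blood endothelial cells lay between 4.76 and 22.3 CPM. By cell number, epithelial tumor cells held 46.5% and 62.1% of all Il33 UMIs, unnamed cells 48.6% and 30.1%, and fibroblasts 1.82% and 5.89%.

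Il18, a ligand of epithelial and myeloid cells, was low throughout. Epithelial tumor cells stood at 24.7 CPM (23.7 to 25.9) and 17.1 CPM (16.2 to 17.9), and macrophages at 22.1 CPM (18.3 to 26.5) and 25.4 CPM (20.6 to 31.0). These intervals overlapped in library 1 and were apart in library 2. Unnamed cells stood at 6.51 and 5.54 CPM and fibroblasts at 7.29 and 10.8 CPM. Epithelial tumor cells held 74.1% of the Il18 UMIs in each library.

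Il1r1, the signaling receptor of IL-1, was found in every class. Among non-leukocyte classes with at least 50 cells in each library, fibroblasts and pericytes were highest. The smaller endocrine class, with 17 and 8 cells, held 36 and 10 Il1r1 UMIs (141 CPM in library 1). Fibroblasts stood at 149 CPM (135 to 164) and 246 CPM (229 to 263), and pericytes, the mural cells of small vessels, at 156 CPM (113 to 210) and 134 CPM (96.2 to 180). Epithelial tumor cells stood at 108 and 91.6 CPM, unnamed cells at 118 and 103 CPM and blood endothelial cells at 55.01 and 95.1 CPM. By total, epithelial tumor cells held 45.1% and 52.2% of Il1r1 UMIs, unnamed cells 48.4% and 38.1% and fibroblasts 2.16% and 5.30%. A UMI was found in 46.0% and 53.7% of fibroblasts, and after thinning in 14.8% and 23.4%. Neutrophils stood at 150 and 111 CPM and macrophages at 91.5 and 68.5 CPM, but most of that RNA lay in sub-clusters rich in tumor-cell RNA. Without the 6 such sub-clusters of all classes, Il1r1 in neutrophils stood at 39.4 and 33.8 CPM (4 and 5 UMIs) and in macrophages at 31.1 and 20.5 CPM. The same step left fibroblasts at 151 and 254 CPM.

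Il1r2, the decoy receptor, had its highest level in neutrophils. Its level there was 302 CPM (163 UMIs, 258 to 353) in library 1 and 545 CPM (281 UMIs, 483 to 612) in library 2. Among classes with at least 50 cells in each library T cells came next, at 27.9 and 29.1 CPM, with macrophages at 16.7 and 23.6 CPM and epithelial tumor cells at 2.06 and 1.99 CPM. An unnamed group of Ptprc-positive leukocytes, with 45 and 74 cells, stood at 140 and 143 CPM, and dendritic cells, with 36 and 174 cells, at 107 CPM (28 UMIs) and 30.6 CPM (31 UMIs). After thinning, Il1r2 was found in 23.8% and 39.8% of neutrophils and in 0.110% and 0.350% of epithelial tumor cells. By total, neutrophils held 26.1% and 34.1% of Il1r2 UMIs and epithelial tumor cells 25.9% and 21.3%. Unnamed cells held 15.8% and 11.5% and macrophages 14.2% and 10.9%. Among the UMIs of both IL-1 receptors, Il1r2 made up 66.8% (60.5 to 72.7) and 83.1% (78.7 to 87.0) in neutrophils. In epithelial tumor cells it made up 1.86% and 2.13%, and in fibroblasts 3.76% and 3.31%. The neutrophil shares include Il1r1 of sub-cluster 2, rich in tumor-cell RNA, which held 77 of 81 and 52 of 57 of the class's Il1r1 UMIs. Without the sub-clusters rich in tumor-cell RNA, neutrophils had 109 and 212 Il1r2 UMIs against 4 and 5 of Il1r1.

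Il1rap, the accessory chain that both IL-1 and IL-33 receptors need, had few UMIs (439 and 343 in all). Neutrophils were highest, at 27.8 CPM (15.6 to 45.9) and 29.1 CPM (16.3 to 48.0), each from 15 UMIs. Fibroblasts stood at 6.56 and 12.9 CPM and epithelial tumor cells at 2.51 and 1.57 CPM. In thinned epithelial tumor cells with an Il1r1 UMI, Il1rap was found in 1 of 481 and 1 of 486, against 0.296% and 0.320% of those without an Il1r1 UMI. At this depth Il1rap was too rare to say whether the pair shares cells.

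Il1rl1, the IL-33 receptor, was the rarest member, with 48 and 68 UMIs in 31 and 40 cells. The neutrophil class stood highest, at 14.8 CPM (8 UMIs) and 50.4 CPM (26 UMIs), but these UMIs lay in 4 and 6 cells. Of those cells, 2 and 6 held at least 5 UMIs of mast-cell or basophil markers, with 6 and 26 of the Il1rl1 UMIs, and 1 and 6 had no UMI of any neutrophil marker. Across the neutrophil class, 3 and 7 of the 8 mast or basophil markers stood at 20 CPM or more, with summed levels of 187 and 430 CPM. The same sum was 143 and 126 CPM in epithelial tumor cells and 255 and 125 CPM in unnamed cells. In library 1 the neutrophil sum thus lay below that of unnamed cells. Mast cells and basophils are known to carry ST2. Without the cells that held those markers the neutrophil class had 2 and 0 Il1rl1 UMIs (4.26 and 0 CPM), too few to give a direction. Fibroblasts had 17 and 7 Il1rl1 UMIs (6.20 and 2.11 CPM), and epithelial tumor cells 9 and 12 (0.114 and 0.137 CPM).

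Order between classes was shared by the libraries for some members and not for others. Among the 8 classes with at least 50 cells in each library, the highest was the same in both for 5 of the 9 members: neutrophils for Il1b, Il1r2, Il1rap and Il1rl1, and fibroblasts for Il33. The highest class changed from macrophages to neutrophils for Il1a, from epithelial tumor cells to neutrophils for Il1rn, from epithelial tumor cells to macrophages for Il18, and from pericytes to fibroblasts for Il1r1. Without the sub-clusters rich in tumor-cell RNA, neutrophils led Il1rn in both libraries. Among smaller classes, Il18 in library 2 stood at 46.3 CPM (24 UMIs) in Ptprc-positive leukocytes and 45.6 CPM (3 UMIs) in endocrine cells, above macrophages. For each of these 4, the intervals of its 2 leading classes overlapped in library 1. For Il1a they also overlapped in library 2. The leads of fibroblasts for Il33 and of neutrophils for Il1rl1 overlapped with the next class in library 1, and that of neutrophils for Il1rap in both.

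Genes with the most similar profile over the 8 classes in both libraries (16 profiles, 11218 genes, Pearson r of log2 CPM plus 1) are given as a description, since the profiles share libraries, depth and carried-over RNA. Il1b was most like Cd300lf (0.98), Rab44 (0.98) and Hk3 (0.97). Il1a was most like Slc26a11 (0.95), Irak2 (0.95) and Il6ra (0.93), and Il1rn most like Hk2 (0.98), Cd14 (0.95) and Sema4a (0.95). Il33 was most like Timp2 (0.93), Pmepa1 (0.90) and Egfr (0.86), and Il18 most like Uap1l1 (0.89), Ctsh (0.89) and Tmem8 (0.87). Among receptors, Il1r1 was most like Meis1 (0.88), Numbl (0.86) and Tvp23a (0.86), and Il1r2 most like Nfe2 (0.92), Lyst (0.92) and Siglecf (0.92). Il1rap was most like Hp (0.91), Mapkapk2 (0.90) and Il1r2 (0.89), and Il1rl1 most like S100a9 (0.92), Lyst (0.91) and Nfe2 (0.90).

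Between the libraries, 3 of the 35 member and class pairs with at least 20 CPM in a library were at least 2-fold apart with separate intervals. Log2 ratios are of library 2 over library 1, with 1 CPM added to each. The pairs were Il1b in T cells, Il33 in fibroblasts and Il1rl1 in neutrophils. By the same rule 3.36% of 9365 genes were apart in T cells, 2.41% of 8686 in fibroblasts and 2.8% of 9084 in neutrophils, where 1.78% were called higher in library 2 as Il1rl1 was. Of 5 members tested in T cells 1 was apart, of 4 in fibroblasts 1 and of 8 in neutrophils 1, so single members stand against those shares. No member tested was apart in epithelial tumor cells, unnamed cells, macrophages, pericytes or blood endothelial cells. The shares of all genes there were 0.6%, 0.524%, 1.51%, 1.65% and 2.68%. Below the 20 CPM minimum, and so not tested, Il1a was more than 2-fold apart with separate intervals in 2 of these classes. It stood at 18.7 and 7.60 CPM in epithelial tumor cells (log2 -1.19) and 8.82 and 3.38 CPM in unnamed cells (log2 -1.16).

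**Figure D2:**
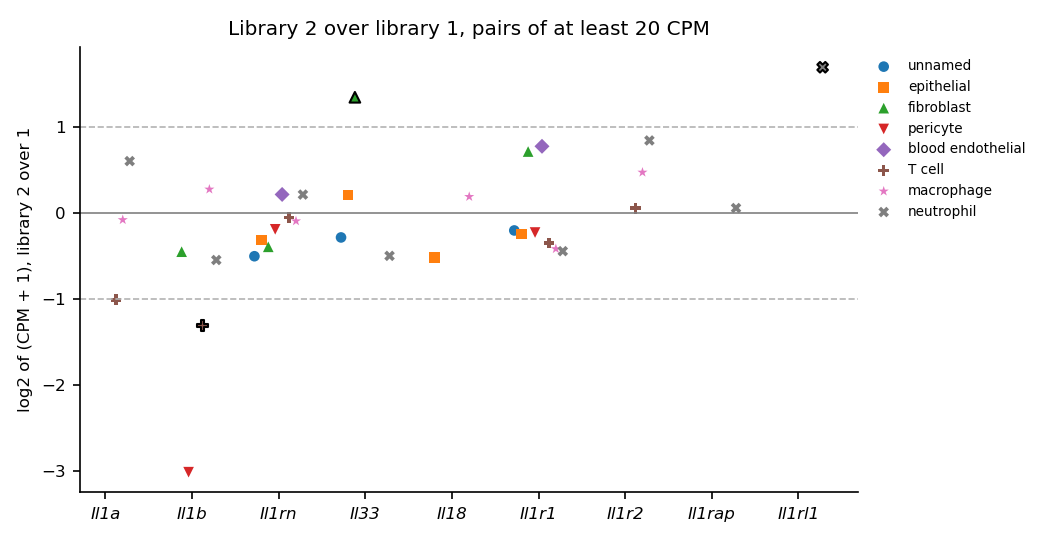
Log2 ratio of library 2 over library 1 (vertical axis, 1 CPM added) for the 35 pairs of gene and class with at least 20 CPM in a library; marker shape gives the class, dashed lines mark a 2-fold ratio and black outlines mark the 3 pairs called. Il33 in fibroblasts (1.35) and Il1rl1 in neutrophils (1.70) lie above the upper line and Il1b in T cells (-1.30) below the lower line, while Il1b in pericytes (-3.01) and Il1a in T cells (-1.01), also below it, have overlapping intervals.

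Il33 in fibroblasts stood at 33.5 CPM (92 UMIs) in library 1 and 87.0 CPM (289 UMIs) in library 2, a log2 ratio of 1.35, and 1.06% of genes were called in that direction. RNA carried over from tumor cells in proportion to epithelial markers would give 7.79 and 7.63 CPM there. Re-clustering the fibroblasts without the 9 genes gave 6 sub-clusters. Sub-cluster 2, led by the secreted inhibitor Slpi, the acute-phase gene Saa3 and the basement-membrane collagen Col4a6, held 42 cells (11.3% of fibroblasts) in library 1 and 128 (28.4%) in library 2. Its Il33 level was 172 CPM (115 to 247) and 199 CPM (170 to 230), with overlapping intervals, and it held 31.5% and 60.9% of the fibroblasts' Il33 UMIs. Sub-cluster 1, whose leading genes include Lrrc15, a marker of matrix-producing cancer-associated fibroblasts, stood at 26.9 and 29.0 CPM. It held 48.1% and 26.2% of the fibroblasts. Lrrc15 was not particular to it, at 269 and 103 CPM there and 295 and 169 CPM in sub-cluster 4. Without sub-cluster 2 the class stood at 24.5 CPM (18.8 to 31.3) and 46.4 CPM (38.2 to 55.8), still with separate intervals, and the ratio was 0.90, under 2-fold. Without doublet removal the class ratio was 0.87, also under 2-fold. Sub-cluster 4 also differed, at 13.1 CPM (2 UMIs) and 103 CPM (14 UMIs), as did sub-cluster 3, at 19.1 CPM (11.3 to 30.3) and 51.1 CPM (38.8 to 66.0). Sub-cluster 3 is among those rich in tumor-cell RNA. Sub-cluster 5 went the other way, at 137 and 44.3 CPM, with 5 UMIs in each library and overlapping intervals.

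Fibroblast sub-cluster 2 was also high in Il1r1, the receptor for IL-1 alpha and IL-1 beta. It stood at 385 CPM (297 to 491) and 414 CPM (373 to 459), against 133 and 131 CPM in sub-cluster 1. Over all fibroblasts Il1r1 stood at 149 and 246 CPM (log2 0.72, not called), and without sub-cluster 2 at 134 and 185 CPM. Sub-cluster 5, led by the chemokines Cxcl1 and Cxcl10, stood at 330 and 257 CPM (12 and 29 UMIs). Sub-cluster 6, with 11 and 12 cells, carried the dendritic-cell genes Ccr7, Ccl17 and Ccl22 and held 15 and 20 of the fibroblasts' 73 and 64 Il1b UMIs.

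**Figure D3:**
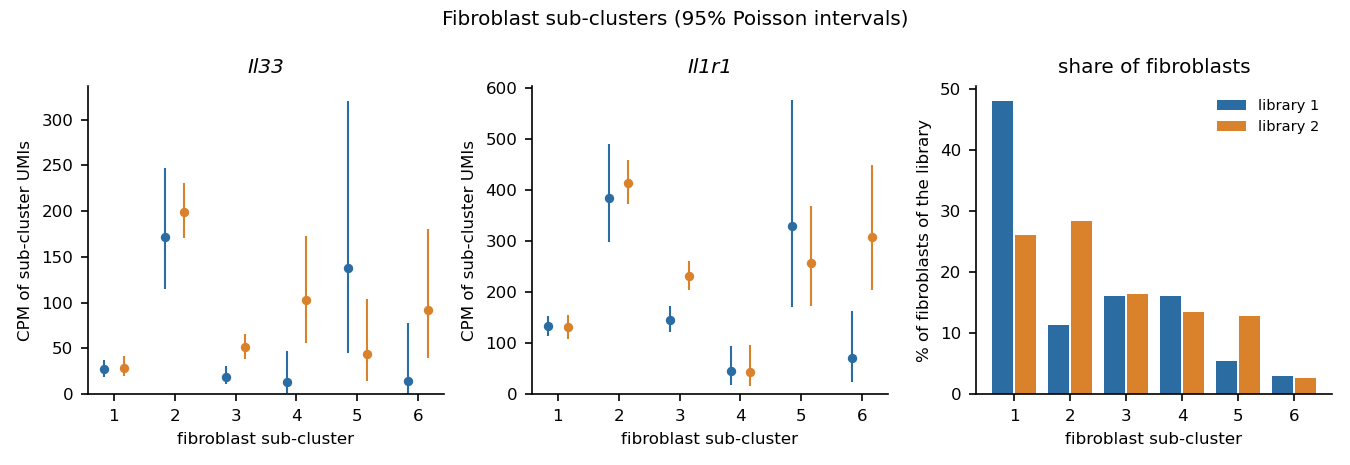
Il33 and Il1r1 levels (CPM of the sub-cluster's UMIs, bars are exact Poisson 95% intervals) and the share of fibroblasts in each of 6 sub-clusters, by library. Sub-cluster 2 is high in both genes in both libraries (172 and 199 CPM, 385 and 414 CPM) and makes up 11.3% of fibroblasts in library 1 and 28.4% in library 2.

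Genes known to respond to IL-1 went both ways in fibroblasts. Of 26 listed targets 17 were tested there, 2 were higher and 3 lower in library 2 (1.06% and 1.35% of all genes were), with a median log2 ratio of 0.06 against 0.02 for all genes tested. The acute-phase gene Saa3 stood at 143 and 410 CPM and the adhesion gene Vcam1 at 75.1 and 202 CPM. The cytokine gene Lif stood at 118 and 52.1 CPM, the prostaglandin synthase gene Ptgs2 at 129 and 57.8 CPM and the protease gene Mmp3 at 93.7 and 30.4 CPM. In sub-cluster 2 Saa3 stood at 1530 and 998 CPM and Lif at 23.7 and 12.4 CPM. Of 18 receptor-signaling genes, among them Myd88 and the IRAK kinases, 15 to 17 were tested in each class and none was called. Irak2 stood at 148 and 166 CPM in macrophages, 143 and 178 CPM in neutrophils and 56.5 and 45.8 CPM in fibroblasts.

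Il1b in T cells stood at 108 CPM (108 UMIs, 88.4 to 130) in library 1 and 43.1 CPM (65 UMIs, 33.2 to 54.9) in library 2, a log2 ratio of -1.30, and 0.993% of genes were called in that direction. After thinning, a UMI was found in 16.3% and 3.46% of T cells. Myeloid RNA in the class moved the same way. The summed level of 12 macrophage markers was 4979 and 3691 CPM, with none at 0. The median over the markers was 25.9% and 14.6% of the macrophage level, and Il1b was at 32.7% and 10.8% of its macrophage level. The 9 neutrophil markers summed to 137 and 71.5 CPM, with 1 at 0 in each library. The 10 T cell markers summed to 1526 and 2444 CPM, with 8 and 10 at 20 CPM or more. Sub-cluster 3 of the T cells, led by C1qa and other macrophage genes, held 16 and 34 cells and 52 and 36 of the Il1b UMIs (358 and 171 CPM). Without it the class stood at 65.3 and 22.3 CPM and the ratio was -1.51. Automatic doublet thresholds took out no cell of library 1 (0) but 2909 barcodes (24.4%) of library 2, and under them the class ratio was -0.54 and the pair was not called. The part of myeloid RNA in the result was not tested.

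Other genes of the T cell class differed as well. Of 7 regulatory T cell genes, all tested, 4 were higher in library 2, where 2.37% of all genes were. Of 6 CD8 T cell genes, all tested, none was higher and 2 were lower, where 0.993% of all genes were. T cell marker RNA in the class also differed, at 1526 and 2444 CPM summed. The IL-18 receptor gene Il18r1 stood at 28.9 CPM (29 UMIs) and 114 CPM (172 UMIs), and the protease genes Casp1 and Casp4 of the inflammasome at 14.0 and 42.4 CPM and at 22.0 and 57.0 CPM. These were 1 of 4 tested genes of the other IL-1 family receptors and 2 of 12 of the inflammasome list called higher, and 1 of those 12, the protease gene Ctsg, was lower, at 109 and 0 CPM. Among those not called, Il18rap stood at 60.9 and 115 CPM, Il18bp at 58.9 and 34.4 CPM and Pycard at 41.9 and 48.4 CPM.

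Among macrophages, sub-cluster 5 was high in all 3 IL-1 ligands. It held 69 and 54 cells and is led by the chemokines Ccl17 and Ccl22 and by Nos2, the inducible nitric oxide synthase. Il1b stood there at 1137 CPM (1026 to 1257) and 1022 CPM (917 to 1136), Il1a at 236 and 194 CPM and Il1rn at 651 CPM (567 to 743) and 542 CPM (467 to 626). These cells were 8.72% and 6.87% of the macrophages and held 33.6% and 42.3% of their Il1rn UMIs. Sub-cluster 3, led by Hpgds, paired high Il1b (928 and 840 CPM) and Il1a (169 and 145 CPM) with low Il1rn (29.5 and 30.2 CPM, 7 and 5 UMIs). Sub-cluster 1, led by Ccl8 and MHC class II genes, stood at 544 and 563 CPM of Il1b, 86.6 and 79.8 CPM of Il1rn and only 6.42 and 10.1 CPM of Il1r1. Sub-cluster 2, rich in tumor-cell RNA, was lowest in Il1b in library 1 (171 CPM, against 187 CPM in library 2). It held 35.3% of macrophages in library 1 and 19.2% in library 2.

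**Figure D4:**
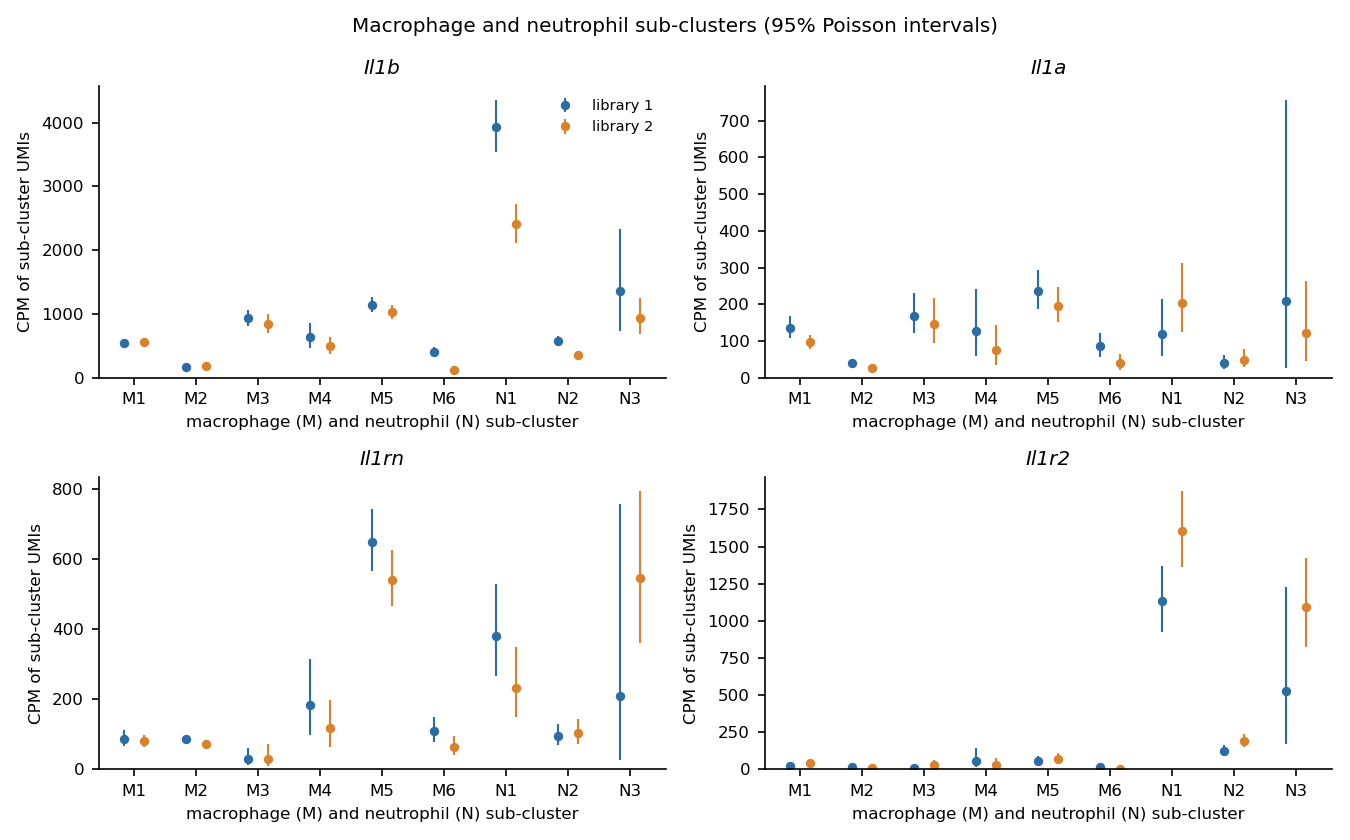
Levels of Il1b, Il1a, Il1rn and Il1r2 (CPM of the sub-cluster's UMIs, bars are exact Poisson 95% intervals) in 6 macrophage (M) and 3 sub-clusters of the neutrophil class (N) by library. Il1rn peaks in M5 among macrophages (651 and 542 CPM), and Il1b and Il1r2 peak in N1 (3933 and 2402 CPM, 1130 and 1601 CPM).

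Neutrophils split by the RNA they carried. Sub-cluster 1 held 90 and 100 cells and carried 57.6% and 57.4% of the class's Il1b UMIs from 17.1% and 19.1% of its total. Il1b stood there at 3933 CPM (3538 to 4360) and 2402 CPM (2106 to 2728), and Il1r2 at 1130 CPM (923 to 1369) and 1601 CPM (1361 to 1872). Of its 10 leading genes by fold 6 are mast-cell genes (Tpsb2, Tpsab1, Mcpt1, Mcpt2, Mcpt4 and Ms4a2), so it is given no cell type of its own. The 8 mast or basophil markers summed there to 543 and 1500.1 CPM and the 9 neutrophil markers to 10300 and 12153 CPM. Sub-cluster 2, rich in tumor-cell RNA, stood at 581 and 354 CPM of Il1b and 123 and 188 CPM of Il1r2. Both sub-clusters had less Il1b and more Il1r2 in library 2. Over the class neither gene was called (log2 -0.54 for Il1b and 0.85 for Il1r2). Without sub-cluster 2 the class stood at 3692 and 1911 CPM of Il1b and 1073 and 1432 CPM of Il1r2.

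Other family members and the maturation machinery differed in where they were highest. Of the IL-36 and related ligands 5 were in the matrix under their Il1f names, and Il1f9, known as IL-36 gamma, was the member at 20 CPM in a class with enough cells, at 35.3 CPM (19 UMIs) and 23.3 CPM (12 UMIs) in neutrophils. The inflammasome sensor Nlrp3 stood at 92.8 and 60.1 CPM in neutrophils, 43.7 and 61.9 CPM in macrophages and 1.81 and 2.74 CPM in epithelial tumor cells. Its adaptor Pycard stood at 43.3 and 80.0 CPM in macrophages, 41.9 and 48.4 CPM in T cells, 11.1 and 25.2 CPM in neutrophils and 2.46 and 2.42 CPM in epithelial tumor cells. Casp1, the protease that cuts both precursors, stood at 19.1 and 34.4 CPM in macrophages and 18.6 and 31.0 CPM in fibroblasts. The pore-forming gene Gsdmd stood at 281 and 346 CPM in epithelial tumor cells and 306 and 327 CPM in macrophages. The IL-18 binding protein gene Il18bp, a soluble IL-18 inhibitor, stood at 52.9 and 82.6 CPM in macrophages, its highest named class in library 2. The IL-36 receptor gene Il1rl2 stood at 23.7 and 26.5 CPM in fibroblasts, 29.0 and 22.3 CPM in pericytes and under 1 CPM in epithelial tumor cells. The negative regulator Sigirr stood at 209 CPM in epithelial tumor cells of both libraries, against 123 and 97.3 CPM in macrophages.

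Tumor cells and unnamed cells formed 14 clusters, of which 12 had 50 or more cells per library. Il1a was lower in library 2 in 11 of these 12, with a median ratio of library 1 over library 2 of 2.51 (range 0.592 to 5.85). Cluster 10, marked by the mucosal genes Pigr and Reg3b, was the exception, at 18.7 CPM (16.3 to 21.2) and 31.5 CPM (27.1 to 36.4). Il1a was highest in cluster 6, marked by Adm, a hypoxia-responsive gene, and the heat-shock gene Hspa1a, at 61.0 CPM (55.2 to 67.3) and 36.0 CPM (31.1 to 41.4). It was lowest in cluster 2, at 4.07 and 1.92 CPM. Over the epithelial tumor class the Il1a ratio was not called at the 20 CPM minimum. Il1b was also lower in 11 of the 12 clusters and Il1rn in 10, with median ratios of 1.75 and 1.19. Clusters of 1 library share tumors and RNA carried over from other cells, so the 12 are not independent. Macrophage markers in the epithelial tumor class stood at 2.23% and 1.49% of their macrophage level, a proportion that would give 7.35 and 5.95 CPM of Il1b against the 9.88 and 6.43 CPM measured.

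**Figure D5:**
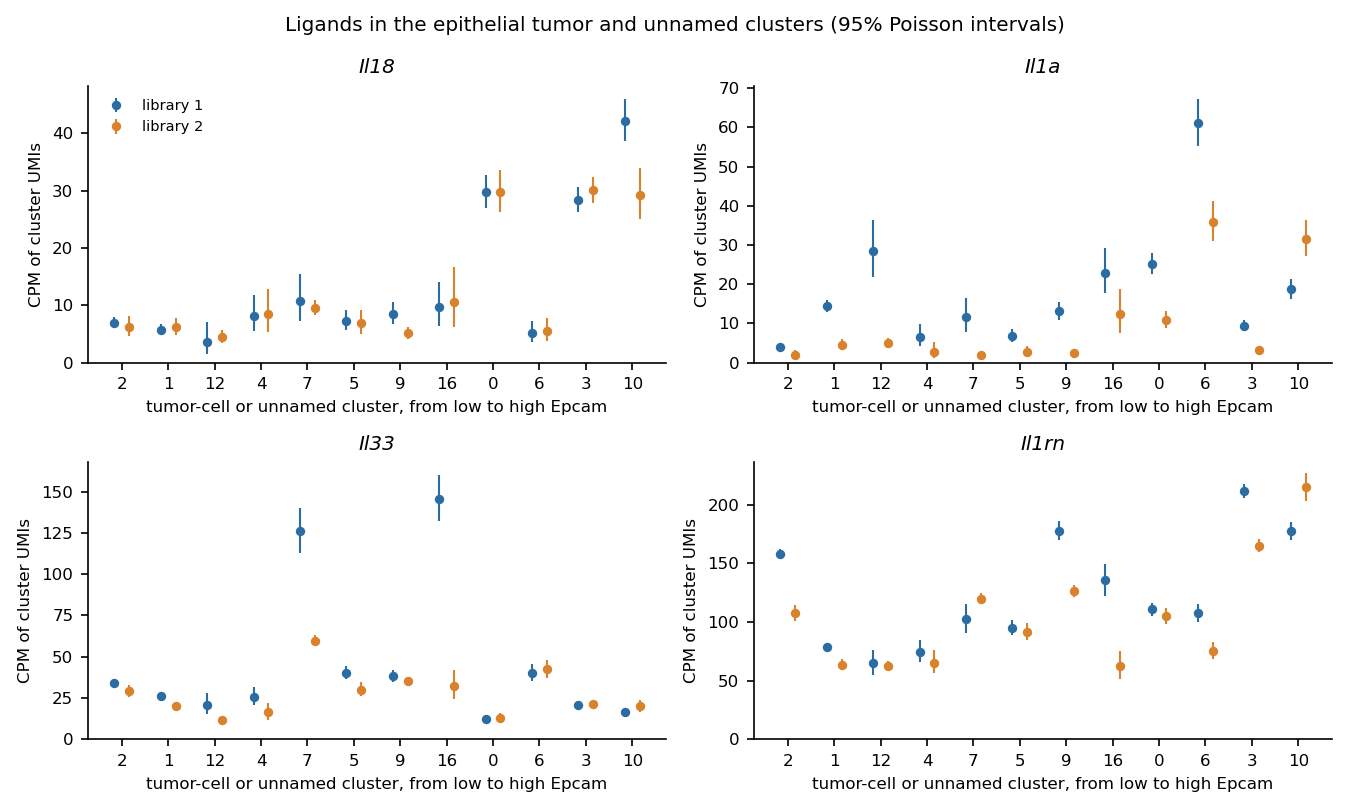
Levels of Il18, Il1a, Il33 and Il1rn (CPM of the cluster's UMIs, bars are exact Poisson 95% intervals) in the 12 tumor-cell or unnamed clusters that had 50 or more cells per library, ordered by Epcam. Il18 is high in clusters 0, 3 and 10 (28.4 to 42.2 CPM) and low elsewhere, and Il33 is highest in clusters 7 and 16 (126 and 145 CPM in library 1).

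Il18 and Il1rn were both high in clusters 3 and 10, and Il33 was high in others. Il18 stood at 29.7 and 29.8 CPM in cluster 0, at 28.4 and 30.04 CPM in cluster 3, marked by the gastric mucosal genes Gkn2 and Clca1, and at 42.2 and 29.3 CPM in cluster 10. In cluster 6, which is also high in Epcam, it stood at 5.14 and 5.45 CPM. Over 13 clusters of each library Il18 and the epithelial adhesion gene Epcam had a Pearson r of 0.61 and 0.72, a description of clusters that share libraries. Il1rn was high in clusters 3 (212 and 165 CPM) and 10 (178 and 215 CPM) and stood at 64.5 and 62.2 CPM at its lowest. Cluster 9 (178 and 126 CPM) and cluster 2 (158 and 108 CPM) had high Il1rn in library 1 with low Il18 (8.54 and 6.97 CPM there). Cluster 15, with 31 cells in library 2, had 173 CPM of Il1rn and 24.4 CPM of Il18 in library 1. In cluster 0, high in Il18, Il1rn stood at 111 and 105 CPM. Il33 stood at 145 CPM (132 to 160) and 32.3 CPM (24.3 to 42.0) in cluster 16, marked by the interferon-response genes Ifit1 and Ifit3. It stood at 126 CPM (113 to 140) and 59.7 CPM (56.6 to 63.0) in cluster 7, marked by the metallothioneins Mt1 and Mt2. Cluster 7 had 147 cells in library 1 and 1188 in library 2, and Il33 is among its 10 leading genes, so its level there is partly what defined the cluster. Il1r1 kept a narrower range, from 64.2 to 169 CPM in library 1 and 70.5 to 150 CPM in library 2.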

How the data were processed

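The authors deposited raw UMI counts of both libraries in 1 matrix, made with Cell Ranger 8.0.0 on mm10 per the submitters' processing notes; columns were tied to libraries only by the barcode's number. Cells needed 200 genes, 500 UMIs and at most 20% mitochondrial UMIs; 1217 and 1137 doublets were removed by Scrublet score at a rate of 0.8% per 1000 barcodes. Scanpy 1.11.5 clustered cells (3000 variable genes, 50 components, 15 neighbors, Leiden resolution 1). An earlier clustering left the 9 genes out of the variable genes; it named a larger set of cells endocrine, and after both were seen the version that keeps them became the main one. Sub-clusters (2000 genes, 30 components, resolution 0.5) were made without the 9 genes, also a choice made after first results. The members and lists were chosen with earlier results of these data known. Genes named beside the members are the 3 most alike per member and listed pathway genes; sub-cluster and cluster genes were named after their values were seen. A pair was called at 2-fold or more with separate 95% intervals and 20 CPM in a library, in classes of at least 50 cells in each library. Shares have exact Clopper-Pearson intervals. Only the call rule was tested on simulated data, Poisson counts of the fibroblast and neutrophil classes. Those counts hold no variation between tumors, and clustering and naming were not simulated. Alternatives covered scaling (edgeR 4.0.16 TMM factors), the CPM minimum, the amount added, summary over cells, depth, doublets, filters, tumor-cell RNA and resolution. The listed names Gsdme, Ly6c2 and Amy2a3, and the IL-36 ligands under their Il36 names, were not analysed here.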

Additional observations from a re-analysis of the deposited data

How the results depend on the processing

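The number of member and class pairs called, 3 as reported, was 5 without the 20 CPM minimum, 5 with the mean of per-cell shares, 14 with automatic doublet thresholds (0 and 2909 barcodes removed) and 6 after subtraction of tumor-cell RNA, and lay between 2 and 14 over all settings. The 5 members with the same highest class became 8 with the mean of per-cell shares. Il1b in T cells kept its call in 18 of 19 other settings and lost it with automatic doublet thresholds (-0.54). Il33 in fibroblasts kept its call in 17 of 19 and lost it without doublet removal (0.87) and without sub-cluster 2 (0.90). Il1rl1 in neutrophils kept its call in 12 of 19, lost it in 6 and stood at -2.39 without the mast-marker cells, a value from 2 and 0 UMIs whose size the 1 CPM added sets and which gives no direction. Il1r2 in neutrophils, not called as reported, was called in 5 settings (1.05 to 1.54), and Il1a in epithelial tumor cells in 3 (-1.50 to -1.19). Apart from the alternatives that change the construction (no minimum, fewer cells), the cause was not tested. Settings that left out the 9 genes from clustering, mast-marker cells, sub-clusters rich in tumor-cell RNA, fibroblast sub-cluster 2 or T cell sub-cluster 3 were chosen after seeing the data. The CPM minimum and the amount added do not enter levels or order. TMM and median-of-ratios factors shifted log2 ratios by -0.11 in blood endothelial cells. No paired analysis was possible because each library is 1 sample. Below 20 CPM, and for Il1rap and Il1rl1 throughout, few UMIs limit what can be read.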
